A study of Sus scrofa with 17 samples.

Results

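The genes described here are the oxygen-sensing transcription factors of the HIF family (HIF1A, EPAS1 and HIF3A), the prolyl hydroxylases that control them (EGLN1, EGLN2 and EGLN3), and the vasoactive peptide system of ADM, APLN and APLNR. They were chosen by symbol, and 8 of these 9 symbols stand in the table of 35670 genes, each on 1 row. EGLN2 was not analysed here. All 8 passed the filter on low counts, which 15884 genes passed. The RNA came from right ventricular myocardium of 17 pigs (Sus scrofa) in a model of right ventricular pressure overload. Every animal, controls included, carried that load, so no unloaded ventricle serves as a reference. The multidose group (n = 7) was given umbilical cord blood mononuclear cells repeatedly, the single dose group (n = 5) was given them in 1 dose, and the control group (n = 5) was given vehicle. Administration was intramyocardial according to the series title. Replicates are individual animals, tissue was taken at more than one time point according to the design text, and the sources used here do not give the age, strain, sex, cell number or time after treatment of each animal.

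When oxygen is plentiful, the EGLN enzymes hydroxylate the alpha subunits encoded by HIF1A and EPAS1, which marks them for degradation through the VHL ubiquitin ligase. When oxygen is scarce the subunits persist, pair with the ARNT protein and switch on genes of glycolysis, angiogenesis and vascular tone. Much of this control acts on the proteins, so transcript levels of HIF1A and EPAS1 do not report HIF activity by themselves, whereas EGLN3 and ADM are well-known target genes of the pathway. Apelin (APLN) and its receptor (APLNR) act in the heart on contractility, vessel tone and vessel growth, and APLNR is a typical endothelial gene.

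The libraries held between 21754800 and 61144663 counts, with a mean of 34899300 in the multidose, 42371000 in the single dose and 53093600 in the control group. Of the library names, 5 start with M1, those of multidose 1 to 4 and of single dose 1, and the other 12 (all controls among them) with M8 or M9. The labels do not say what these names stand for, but 2220 of 15884 genes differed between them with the dosing groups held constant. For a part of the results, values with and without the M1 libraries are therefore both given. Ventricular markers were high, with MYL2 between 8630 and 22633 CPM and TNNI3 between 3213 and 8585 CPM. Atrial markers summed to 132 CPM in control 2, 117.9 CPM in multidose 6 and 22.8 to 63.2 CPM in the other 15 libraries. MYL4, SLN and NR2F2 passed the low-count filter, and BMP10 and MYBPHL did not. Levels are in CPM, the count relative to the size of its library after TMM scaling. They are not divided by gene length, so they compare animals for 1 gene and not 1 gene with another.

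None of the 8 genes passed the test between any pair of dosing groups (edgeR quasi-likelihood test, Benjamini-Hochberg adjustment over 15884 genes, threshold 0.05). For multidose against control 0 of 8 were called, as were 0% of all tested genes, and 2 of 8 (EPAS1 and HIF3A, both lower) had an unadjusted p under 0.05, against 12.6% of all tested genes, and 5.83% with lower values. For single dose against control 0 of 8 were called, against 0% of all genes, and 2 of 8 (HIF3A and ADM, both lower) had an unadjusted p under 0.05, against 5.26%, and 2.84% with lower values. For multidose against single dose both counts were 0 of 8, against 0% called and 2.11% at an unadjusted p under 0.05. DESeq2 and limma-voom likewise called 0 of the 8 in each of these comparisons. The counts at an unadjusted p under 0.05 moved with the libraries. Without control 4 they were 1 of 8 for multidose and 0 of 8 for single dose against control, against 10.5% and 3.13% of all tested genes. With M8 and M9 names only they were 0 of 8 and 2 of 8, and the share of all genes in those fits is not given here. At the same threshold DESeq2 gave 2, 2 and 0 of the 8, against 2265, 1003 and 391 of all genes. The limma-voom counts were 0, 1 and 0 of the 8, against 2636, 756 and 1607 of all genes. That 1 was APLNR, which was higher (1.30, unadjusted p = 0.0221 by limma-voom). HIF3A and ADM had an unadjusted p of 0.0526 and 0.0619 by limma-voom for single dose against control. The first 2 comparisons share their 5 control libraries, so a high or low control moves both of them.

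**Figure D1:**
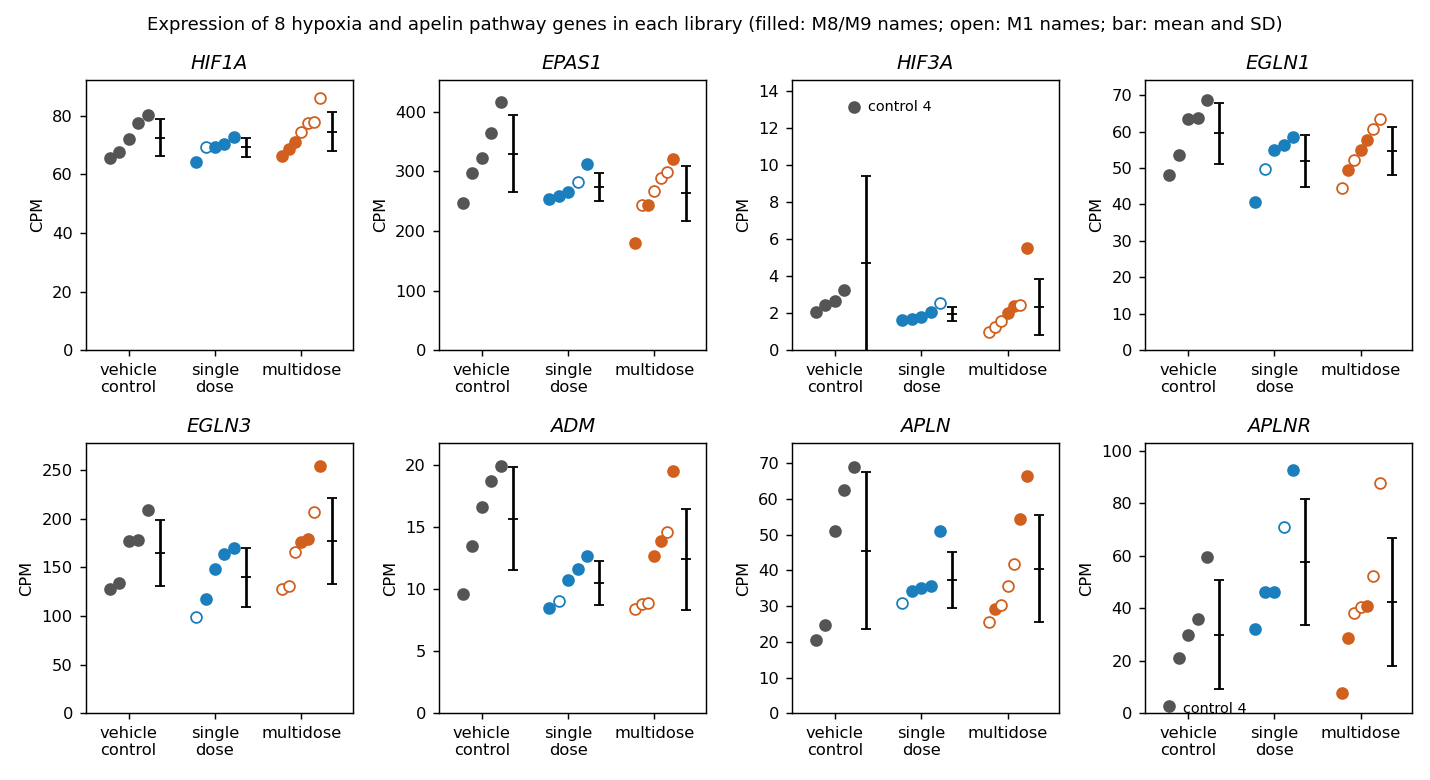
Level of each gene in CPM (vertical axes, starting at 0) in the 5 vehicle control, 5 single dose and 7 multidose libraries, sorted by value within a group, with M1 names as open circles and the mean and SD at the side. Control 4 stands at 13.1 CPM for HIF3A and at 2.98 CPM for APLNR, the highest and the lowest of all 17 libraries, while HIF1A varies little.

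The 8 genes differed widely in how much they varied among the animals. HIF1A (ENSSSCG00000005096, chromosome 1, 190625436 to 190673926 on Sscrofa11.1) ranged from 64.2 to 86.02 CPM, a ratio of 1.34 between the highest and lowest library. Its SD of log2 CPM was 0.11, and only 1.28% of the tested genes had a smaller SD. APLNR (ENSSSCG00000038869) was at the other end, with a ratio of 31.1 between single dose 2 (92.6 CPM) and control 4 (2.98 CPM). Its SD was 1.22, and 97.5% of the tested genes had a smaller one, against a median SD of 0.35 over all tested genes. HIF3A (SD 0.83, with 89.6% of genes below it) and APLN (0.53, 71.2%) also varied more than the median gene. ADM (0.43, 61.8%) lay somewhat above it, EGLN3 (0.34, 48.4%) close to it, and EPAS1 (0.27, 33.3%) and EGLN1 (0.20, 16.2%) below it. APLNR and HIF1A kept these places in the 12 M8 and M9 libraries alone, where 98.9% and 0.844% of genes had a smaller SD.

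HIF1A encodes the broadly expressed alpha subunit that drives the acute response to low oxygen. It measured 72.02, 67.8, 80.1, 77.4 and 65.5 CPM in controls 1 to 5 and 69.2, 72.8, 70.3, 64.2 and 69.5 CPM in single dose animals 1 to 5. In the multidose group the lowest, median and highest values were 66.4, 74.3 and 86.02 CPM. The 3 groups overlapped over most of their ranges. The log2 fold change was 0.038 (95% interval -0.15 to 0.22, adjusted p = 0.870 by edgeR) for multidose against control, or -0.090 (interval -0.33 to 0.15) with M8 and M9 names only. It was -0.069 (interval -0.27 to 0.13, adjusted p = 0.919 by edgeR) for single dose against control.

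EPAS1 (ENSSSCG00000008443, chromosome 3, 94167759 to 94253662) encodes HIF-2 alpha, the paralogue that is prominent in endothelial cells. It measured 364, 247, 417, 297 and 323 CPM in controls 1 to 5 and 282, 265, 312, 254 and 259 CPM in single dose animals 1 to 5. Multidose animals had a lowest value of 179.9 (multidose 5), a median of 267 and a highest value of 321 CPM. Controls 1, 3 and 5 lay above every dosed animal, whereas controls 2 and 4 lay among them. The group means were 329 ± 64.6 CPM in controls (SD, n = 5), 274 ± 23.6 CPM after a single dose (SD, n = 5) and 263 ± 46.5 CPM after multiple doses (SD, n = 7). The log2 fold change for multidose against control was -0.32 (interval -0.63 to -0.012, adjusted p = 0.391 by edgeR). Fitted on M8 and M9 names alone, it was -0.42 (adjusted p = 0.9998 by edgeR). For single dose against control it was -0.26 (interval -0.60 to 0.074, adjusted p = 0.891 by edgeR).

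Endothelial markers were examined beside EPAS1. Of the 20 listed markers 14 had negative values for multidose against control and 15 for single dose against control, with medians of -0.22 and -0.15 and 0 of 20 called in each comparison. The median of all genes was -0.0051 and 0.0025. Their summed level was 1495 to 2546 CPM in controls, 1521 to 1719 CPM after a single dose and 1436 to 1994 CPM after multiple doses, and no defining marker was at 0. The markers were not uniform, since the adhesion gene PECAM1 averaged 275 CPM after multiple doses and 274 CPM in controls, and the junction gene CDH5 141 and 166 CPM. Their part in the values of EPAS1 was not tested, and in tissue RNA fewer endothelial cells and less RNA per cell cannot be told apart.

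HIF3A (ENSSSCG00000003101, chromosome 6, 52342893 to 52376339) encodes an alpha subunit with splice forms that can restrain the other 2. It measured 2.46, 2.04, 2.63, 13.1 and 3.27 CPM in controls 1 to 5 and 2.53, 2.05, 1.61, 1.67 and 1.80 CPM in single dose animals 1 to 5. In the multidose group the lowest value was 0.986, the median 2.02 and the highest 5.50 CPM (multidose 7). Control 4 was far above the rest of its group, and the other controls overlapped the dosed animals. The log2 fold change was -1.01 (interval -1.97 to -0.054, adjusted p = 0.388 by edgeR) for multidose against control. For single dose against control it was -1.29 (interval -2.35 to -0.23, adjusted p = 0.891 by edgeR). Without control 4 these values were -0.15 (adjusted p = 0.888 by edgeR) and -0.43 (adjusted p = 0.980 by edgeR). With M8 and M9 names only the multidose value was -0.52, and it was 0.34 when control 4 was left out as well.

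EGLN1 (ENSSSCG00000010172, chromosome 14, 59113527 to 59168421) encodes PHD2, the main oxygen sensor that hydroxylates HIF-1 alpha. It was at 48.2, 53.5, 63.6, 68.6 and 63.8 CPM in controls 1 to 5 and at 49.7, 40.6, 56.3, 55.1 and 58.4 CPM in single dose animals 1 to 5. Multidose values ran from 44.6 over a median of 54.98 to 63.5 CPM. Control means were highest (59.5 ± 8.42 CPM, SD, n = 5), followed by multidose (54.7 ± 6.51 CPM, SD, n = 7) and single dose (52.01 ± 7.16 CPM, SD, n = 5), with ranges that overlapped. EGLN1 had a log2 fold change of -0.12 (interval -0.37 to 0.13, adjusted p = 0.664 by edgeR) for multidose and -0.19 (interval -0.46 to 0.075, adjusted p = 0.891 by edgeR) for single dose against control. Without control 4 these values were -0.061 and -0.13.

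EGLN3 (ENSSSCG00000001963, chromosome 7, 65805513 to 65833536) encodes PHD3, a hydroxylase that is itself induced by HIF. Controls 1 to 5 measured 134, 178, 209, 177 and 128 CPM, and single dose animals 1 to 5 measured 99.4, 117.6, 163, 170.5 and 148 CPM. The multidose group ran from 128 over a median of 176 to 254 CPM in multidose 5. Multidose had the highest mean (177 ± 43.9 CPM, SD, n = 7), then control (165 ± 33.9 CPM, SD, n = 5) and single dose (140 ± 30.4 CPM, SD, n = 5). On the log2 scale EGLN3 differed by 0.10 (interval -0.29 to 0.49, adjusted p = 0.836 by edgeR) for multidose against control and -0.24 (interval -0.66 to 0.18, adjusted p = 0.891 by edgeR) for single dose against control. With M8 and M9 names only the difference for multidose against control was 0.29. Of the 8 genes, EGLN3 had the smallest p between the 2 dosing schemes, at a log2 fold change of 0.34 for multidose against single dose (interval -0.052 to 0.74, adjusted p = 0.99998 by edgeR). With the M1 names as a covariate that value was 0.51 (interval 0.14 to 0.88, adjusted p = 0.9996 by edgeR).

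ADM (ENSSSCG00000013408, chromosome 2, 49229223 to 49231521) encodes adrenomedullin, a vasodilator peptide that low oxygen and wall stress induce. Controls 1 to 5 measured 16.7, 9.65, 13.4, 19.9 and 18.7 CPM, and single dose animals 1 to 5 measured 9.02, 12.7, 10.7, 8.52 and 11.6 CPM. Multidose values ran from 8.38 over a median of 12.7 to 19.5 CPM. Of the controls 4 of 5 exceeded every single dose animal, and control 2 lay inside the single dose range. The group means were 15.7 ± 4.18 CPM in controls (SD, n = 5), 12.4 ± 4.07 CPM after multiple doses (SD, n = 7) and 10.5 ± 1.74 CPM after a single dose (SD, n = 5). For single dose against control the log2 fold change was -0.58 (interval -1.07 to -0.088, adjusted p = 0.891 by edgeR). It was -0.54 in the M8 and M9 libraries and -0.47 without control 4. For multidose against control it was -0.34 (interval -0.79 to 0.11, adjusted p = 0.502 by edgeR). With M8 and M9 names only it was -0.038.

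The receptor side of adrenomedullin consists of CALCRL, a receptor protein that gains its specificity from the accessory proteins RAMP1, RAMP2 and RAMP3. CALCRL (ENSSSCG00000016031) measured 62.4 ± 8.86 CPM in controls (SD, n = 5), 60.7 ± 12.4 CPM after a single dose (SD, n = 5) and 80.8 ± 24.8 CPM after multiple doses (SD, n = 7), a log2 fold change of 0.37 for multidose against control that stood at -0.14 in the M8 and M9 libraries. RAMP1 (ENSSSCG00000016331), which also forms the receptor of the related peptide CGRP, measured 136 ± 38.8 CPM in controls (SD, n = 5), 235 ± 116 CPM after a single dose (SD, n = 5) and 282 ± 108 CPM after multiple doses (SD, n = 7). Against control, multidose differed by 1.05 (log2, SE 0.33, adjusted p = 0.366 by edgeR) and single dose by 0.79 (SE 0.34, adjusted p = 0.891 by edgeR). In the M8 and M9 libraries these values were 0.52 and 0.47. RAMP2 (ENSSSCG00000017389), a partner that makes CALCRL an adrenomedullin receptor, had 0.12 and -0.13. ACKR3 (ENSSSCG00000016322), a scavenging receptor that binds adrenomedullin as well as chemokines, had -0.95 and -1.07, and -0.24 and -0.37 without control 4. In that library ACKR3 measured 137 CPM, the 4 remaining controls 27.3 to 39.2 CPM. Of the 8 tested genes of this list, 0 were called in each comparison of dosing groups.

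APLN (ENSSSCG00000048443, chromosome X, 106236746 to 106246563) encodes the apelin precursor. Controls 1 to 5 measured 62.3, 24.7, 68.9, 20.5 and 50.96 CPM, and single dose animals 1 to 5 measured 30.9, 35.2, 50.9, 35.6 and 34.2 CPM. Multidose values ran from 25.5 over a median of 35.6 to 66.4 CPM. The controls held both the highest and the lowest animal of the study and so spanned all values of the dosed groups. APLN had a log2 fold change of -0.17 (interval -0.78 to 0.44, adjusted p = 0.820 by edgeR) for multidose against control. With M8 and M9 names only it was 0.12. For single dose against control it was -0.28 (interval -0.95 to 0.38, adjusted p = 0.908 by edgeR). Without control 4 the values were -0.35 for multidose and -0.46 for single dose against control.

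APLNR encodes the G protein-coupled receptor of apelin. Controls 1 to 5 measured 29.8, 35.99, 59.5, 2.98 and 21.1 CPM, and single dose animals 1 to 5 measured 70.8, 92.6, 46.3, 31.98 and 46.3 CPM. In the multidose group the lowest value was 7.78 (multidose 5), the median 40.5 and the highest 87.9 CPM (multidose 4). Mean levels were highest after a single dose (57.6 ± 24.03 CPM, SD, n = 5), then after multiple doses (42.3 ± 24.4 CPM, SD, n = 7) and lowest in controls (29.9 ± 20.7 CPM, SD, n = 5), with overlap among all 3 groups. The log2 fold change was 0.95 (interval -0.28 to 2.17, adjusted p = 0.891 by edgeR) for single dose against control, and 0.66 without control 4. For multidose against control it was 0.50 (interval -0.64 to 1.64, adjusted p = 0.696 by edgeR). With M8 and M9 names only it was -0.22. Both intervals include 0 and reach beyond 1 on the log2 scale. By limma-voom the values against control were 1.30 for single dose (adjusted p = 0.976) and 0.96 for multidose (adjusted p = 0.333).

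**Figure D2:**
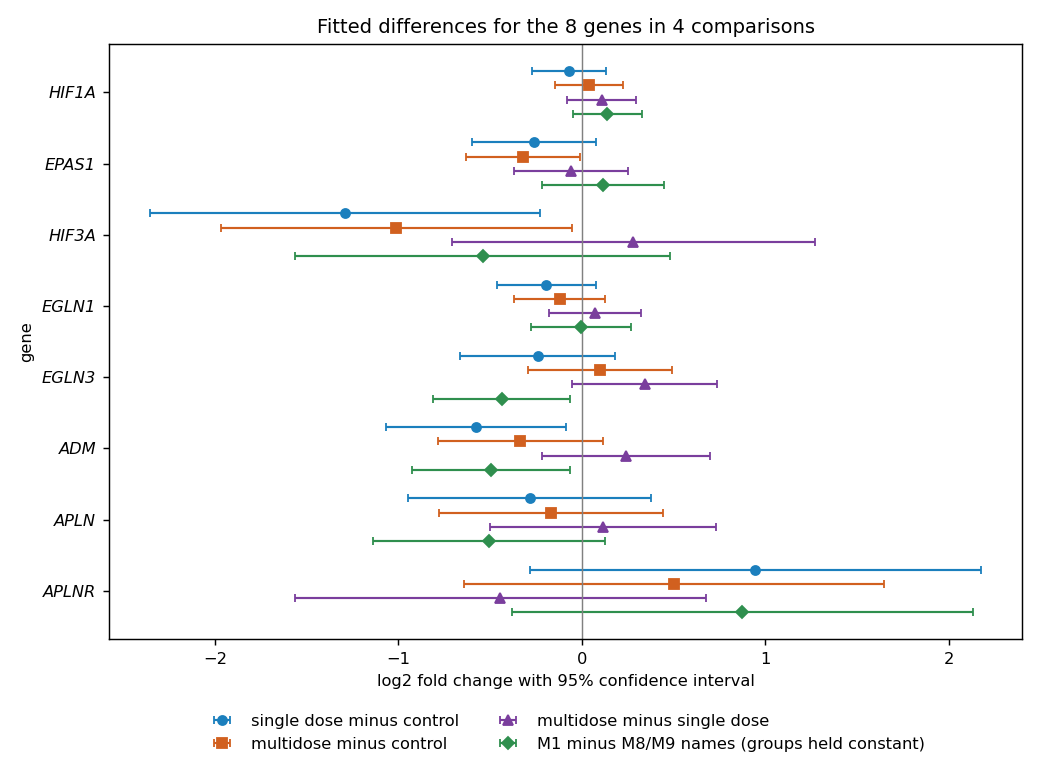
Fitted log2 fold change (horizontal axis) and 95% confidence interval of each gene (vertical axis) for the 3 comparisons of dosing groups and for M1 against M8 and M9 names. Intervals are narrow for HIF1A and EGLN1 and widest for APLNR, where single dose against control runs from -0.28 to 2.17.

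Control 4 differed from the other controls in several of these genes at once. It had the highest level of HIF3A, EGLN1 and ADM of all 17 libraries and the lowest of APLN and APLNR. Glucocorticoid-responsive genes stood apart in the same animal. FKBP5, a chaperone gene induced by glucocorticoids, measured 275 CPM there against 47.6 to 66.6 CPM in the other controls. PDK4, a fuel-switch kinase gene, measured 602 CPM against 42.7 to 98.8 CPM. The 12 genes of the glucocorticoid-responsive list found in the table summed to 1635 CPM in control 4, to 354 to 465 CPM in the other controls, to 219 to 301 CPM after a single dose and to 229 to 419 CPM after multiple doses. All 11 tested genes of that list had negative values in both comparisons with control, with medians of -0.83 for multidose and -1.30 for single dose, and 0 were called. Without control 4 the medians were -0.39 and -0.66. Immediate early genes, which respond to acute stimuli and to tissue handling, reached a sum of 820 CPM in control 4 and 400.1 to 529 CPM elsewhere among controls. Single dose 1 had a higher sum of 851 CPM, with HIF3A at 2.53, ADM at 9.02 and APLNR at 70.8 CPM. The part of either list in the values of HIF3A, APLNR and ADM was not tested.

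The other libraries did not all follow this pattern. Multidose 7 had the second highest HIF3A level (5.50 CPM), with a glucocorticoid-responsive sum of 333 CPM inside the range of its group. Multidose 5 had the second lowest APLNR level (7.78 CPM), with a sum of 385 CPM and an APLN level of 66.4 CPM, the highest of its group. The low APLNR of control 4 therefore came with the lowest APLN, and that of multidose 5 with a high one.

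**Figure D3:**
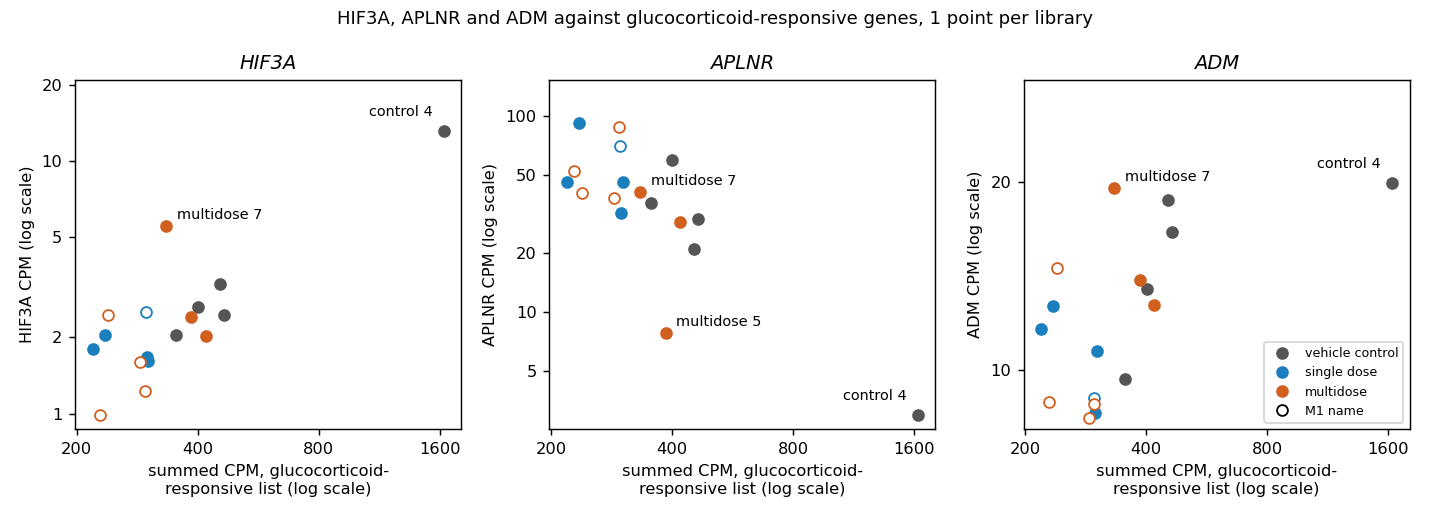
Levels of HIF3A, APLNR and ADM in CPM (vertical log axes) against the summed CPM of the glucocorticoid-responsive list (horizontal log axis), 1 point per library, coloured by dosing group with open circles for M1 names. Control 4 lies alone at 1635 CPM, with HIF3A at 13.1 CPM and APLNR at 2.98 CPM. Among dosed animals multidose 5 is lowest for APLNR (7.78 CPM, at a sum of 385 CPM). Multidose 7 is highest among them for HIF3A (5.50 CPM, at a sum of 333 CPM).

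**Figure D4:**
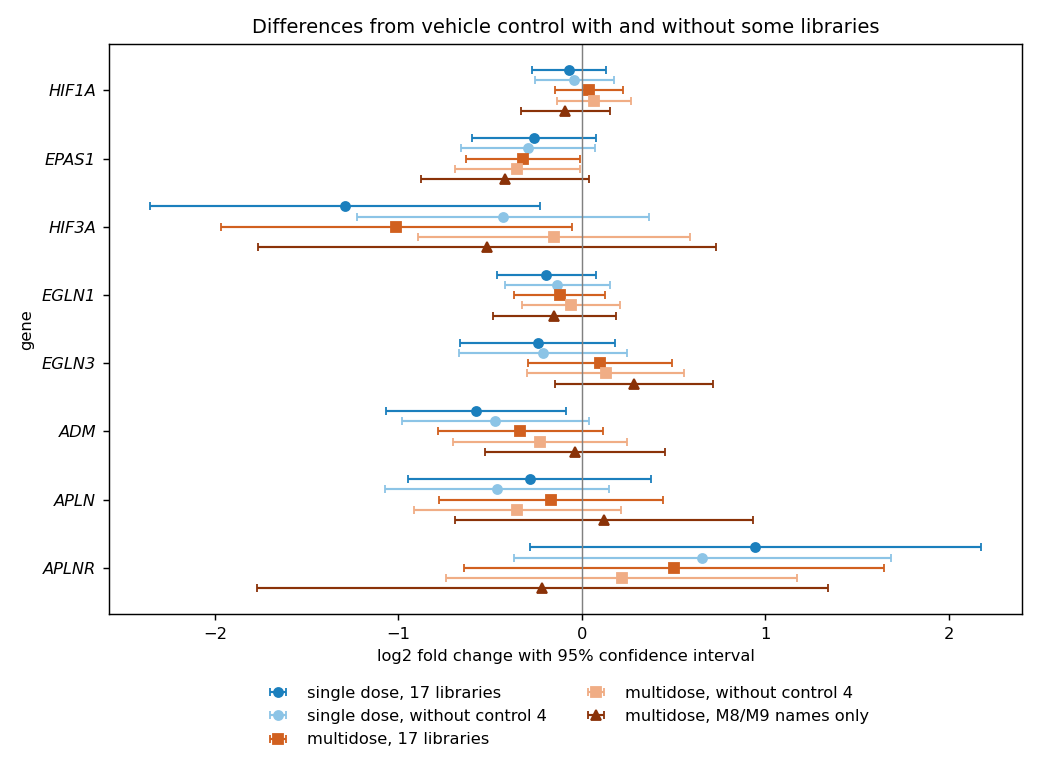
Log2 fold changes against vehicle control with 95% confidence intervals (horizontal axis) for each gene (vertical axis), fitted with all 17 libraries, without control 4, or, for multidose, with M8 and M9 names only. HIF3A moves from -1.29 to -0.43 for single dose without control 4, and APLNR for multidose moves from 0.50 to -0.22 with M8 and M9 names only.

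The library names were compared with the dosing groups held constant, so that M1 libraries were set against M8 and M9 libraries of the same group. Of the 8 genes 0 were called, against 14% of all tested genes, and 2 of 8 had an unadjusted p under 0.05, against 29.9%, and 16.4% with lower values. These were EGLN3, at -0.44 (SE 0.18, adjusted p = 0.106 by edgeR), and ADM, at -0.50 (SE 0.20, adjusted p = 0.1102 by edgeR). Among dosed animals EGLN3 measured 146 ± 41.3 CPM in the M1 libraries (SD, n = 5) and 173 ± 41.7 CPM in the others (SD, n = 7), and ADM 9.93 ± 2.61 against 12.8 ± 3.43 CPM. By limma-voom with quality weights EGLN3 was called (-0.43, adjusted p = 0.0280), 1 of the 8, as were 4553 of the 15884 tested genes. By DESeq2 EGLN3 was not called (adjusted p = 0.0753), whereas 3003 of all genes were. APLNR had a value of 0.87 (SE 0.59), APLN one of -0.51 (SE 0.30), HIF3A one of -0.54 (SE 0.48), HIF1A one of 0.14 (SE 0.090), EPAS1 one of 0.12 (SE 0.16) and EGLN1 one of -0.0035 (SE 0.13). Of the M1 libraries, 4 of 5 are multidose libraries, so comparisons with control that ignore the names mix both differences.

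Genes around the pathway were taken from lists of HIF regulators, HIF target genes, the adrenomedullin system and the apelin system. Among 50 tested HIF target genes, 28 had negative values for multidose against control (median -0.13) and 34 for single dose against control (median -0.15), while the median of all genes was -0.0051 and 0.0025. Called were 0 of 50 in each comparison, and 8 and 13 had an unadjusted p under 0.05, against 0% called and 12.6% and 5.26% of all tested genes at that p. Without control 4 the medians were -0.016 and -0.078, and 4 and 3 of 50 had an unadjusted p under 0.05, against 10.5% and 3.13% of all genes tested in those fits. VEGFA (ENSSSCG00000001695), the endothelial growth factor, measured 142 ± 37.7 CPM in controls (SD, n = 5), 128 ± 39.1 CPM after a single dose (SD, n = 5) and 112 ± 31.8 CPM after multiple doses (SD, n = 7).

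FLT1 (ENSSSCG00000009320), which encodes the decoy-like VEGF receptor VEGFR1, had the smallest p of the HIF targets for single dose against control. It measured 116.9 ± 36.1 CPM in controls (SD, n = 5), 66.2 ± 7.41 CPM after a single dose (SD, n = 5) and 79.1 ± 18.6 CPM after multiple doses (SD, n = 7). Single dose animals ran from 59.9 to 78.9 CPM and controls from 76.7 to 173 CPM, with only single dose 5 reaching into the control range. Single dose differed from control by -0.82 (log2, SE 0.21, adjusted p = 0.755 by edgeR), and by -0.63 without control 4. DDIT4 (ENSSSCG00000031888), a stress-induced inhibitor of mTOR signalling, had -1.05 (SE 0.34, adjusted p = 0.366 by edgeR) for multidose against control. It measured 172 CPM in control 4 against 31.8 to 55.1 CPM in the other controls, and its value was -0.34 without that library. P4HA1 (ENSSSCG00000010292), a collagen prolyl hydroxylase gene, was likewise highest in control 4 at 171 CPM, and its single dose value of -0.69 (SE 0.24) became -0.32 without it. HMOX1 (ENSSSCG00000039745), the haem oxygenase gene, had -0.80 (SE 0.26) for multidose, and NDRG1 (ENSSSCG00000005944), a hypoxia-responsive gene, had -0.50 (SE 0.17) for single dose, each without passing after adjustment (0.366 and 0.891 by edgeR). HMOX1 measured 19.9 and 18.9 CPM in controls 1 and 4 but 5.70 to 8.81 CPM in controls 2, 3 and 5.

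Of 18 tested HIF regulators 0 were called between dosing groups, with medians of -0.055 for multidose and -0.027 for single dose against control. CITED2 (ENSSSCG00000004142), which competes with HIF for its coactivators, measured 88.7 ± 12.8 CPM after multiple doses (SD, n = 7) and 60.1 ± 9.26 CPM in controls (SD, n = 5). That is a log2 difference of 0.56 (SE 0.16, adjusted p = 0.366 by edgeR), which was 0.42 with M8 and M9 names alone. EP300 (ENSSSCG00000000068), which encodes one of those coactivators, had -0.47 (SE 0.15) for multidose and -0.42 (SE 0.16) for single dose against control. Its level was 94.1 CPM in control 3, with the 4 remaining controls at 51.04 to 53.6 CPM. Of the 13 tested genes of the apelin list 0 were called between dosing groups. KLF2 (ENSSSCG00000038911), a flow-responsive endothelial factor, had -0.63 (SE 0.21) and FURIN (ENSSSCG00000001817), a protease that can process proapelin, had -0.43 (SE 0.16) for multidose against control. KLF2 measured 87.4 and 82.0 CPM in controls 1 and 4 but 34.1 to 50.5 CPM in controls 2, 3 and 5. FURIN measured 93.6 CPM in control 3 and 58.1 to 61.2 CPM in the 4 remaining controls, its value was -0.17 with M8 and M9 names alone, and it had -0.40 (SE 0.14, adjusted p = 0.0745 by edgeR) for M1 against M8 and M9 names.

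More of these genes differed by library name. Depth and some cell type markers moved with the names among dosed animals, at a mean of 26381200 counts in M1 and 46320600 in the other libraries. Summed levels averaged 7416 against 4745 CPM for fibroblast, 1003 against 1448 CPM for mural cell, 362 against 101 CPM for erythroid and 21.5 against 37.96 CPM for T and NK cell markers. Endothelial (1659 against 1669 CPM) and macrophage markers (434 against 436 CPM) hardly differed. The part of depth and cell types in the differences by name was not tested. Of 50 HIF target genes 3 rose and 6 fell in the M1 libraries with the groups held constant (edgeR, adjusted p under 0.05), against 5.92% and 8.06% of all tested genes, with a median of -0.0028. HK2 (ENSSSCG00000008261), the inducible hexokinase gene, fell by 2.35 (log2 units, SE 0.43, adjusted p = 0.00396 by edgeR), from 60.2 ± 29.4 CPM in the other dosed libraries (SD, n = 7) to 12.5 ± 5.62 CPM (SD, n = 5). PFKL (ENSSSCG00000028197), a phosphofructokinase gene, fell by 0.76 (SE 0.13, adjusted p = 0.00263 by edgeR). BNIP3L (ENSSSCG00000009658), a mitophagy receptor gene, rose by 0.53 (SE 0.12, adjusted p = 0.00816 by edgeR). In the adrenomedullin list 2 of 8 rose and 1 of 8 fell, namely CALCRL (0.58, SE 0.18, adjusted p = 0.0385), RAMP1 (0.93, SE 0.25, adjusted p = 0.0229) and RAMP3 (-0.66, SE 0.18, adjusted p = 0.0220), while RAMP2 had 0.18 (SE 0.15, adjusted p = 0.456, all by edgeR). RAMP1 measured 361 ± 82.4 CPM in the M1 libraries (SD, n = 5) and 192 ± 58.3 CPM in the other dosed libraries (SD, n = 7). In the apelin list 1 of 13 rose, PCSK6 (ENSSSCG00000005785), a proprotein convertase gene (1.199, SE 0.18, adjusted p = 0.00128 by edgeR), and of the HIF regulators 1 of 18, RACK1 (ENSSSCG00000029724, 0.62, SE 0.18, adjusted p = 0.0294 by edgeR), a ribosomal scaffold gene.

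**Figure D5:**
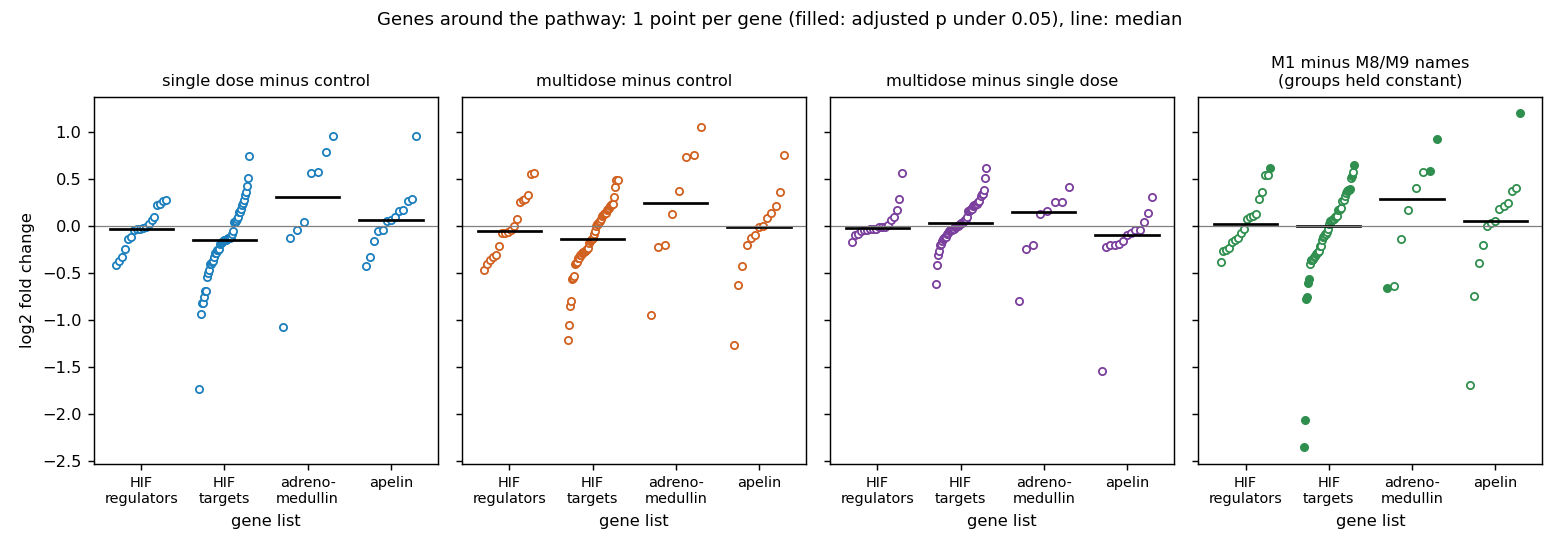
Log2 fold change (vertical axis) of each tested gene in 4 pathway lists (horizontal axis) for the 4 comparisons, with filled circles for an adjusted p under 0.05 and a line at the list's median. The comparisons of dosing groups hold no filled circle, and M1 against M8 and M9 names holds 14, HK2 lowest at -2.35 and PCSK6 highest at 1.199.

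The genes were also compared with each other across animals. Since many genes differed by library name, this used the 12 M8 and M9 libraries, and 6 pairs were examined. The strongest of the 6 was HIF1A with EPAS1 (Pearson r = 0.55, permutation p = 0.0641, Spearman rho = 0.55, permutation p = 0.0710, adjusted p = 0.385 and 0.426), with r = 0.30 without controls 3 and 4. APLN with APLNR had r = 0.26 (permutation p = 0.420, adjusted p = 0.630) and rho = 0.13 (permutation p = 0.682, adjusted p = 0.682), and r = -0.33 without controls 2 and 4. The other 4 pairs had r between -0.092 and 0.30, with adjusted permutation p-values between 0.630 and 0.776.

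Over the same 12 libraries the genes most like each member were picked among 11424 named genes averaging 1 CPM or more, as a description without a test. The libraries share dosing groups and differ in depth, and the highest of so many values is high by selection. APLNR was most like PPP1R16B (r = 0.98, rho = 0.91), an endothelial phosphatase regulator, and then SYT2 (0.93, 0.81) and MYCN (0.93, 0.77). Without control 4 the r with PPP1R16B was 0.96. EPAS1 was most like JCAD (r = 0.94, rho = 0.87), a gene of endothelial junctions, then SMG1 (0.93, 0.95) and KMT2E (0.93, 0.90). HIF3A was most like TBXA2R (r = 0.92, rho = 0.85), the thromboxane receptor gene, ACKR3 (0.92, 0.80) and CTXN3 (0.92, 0.62), at 0.80, 0.73 and 0.77 without control 4. ADM was most like the receptor tyrosine kinase gene KIT (r = 0.90, rho = 0.95), TBXA2R (0.88, 0.95) and the natriuretic peptide receptor gene NPR1 (0.87, 0.86), so TBXA2R stood near both HIF3A and ADM. APLN was most like SHISAL1 (r = 0.92, rho = 0.87), GHSR (0.87, 0.92) and PDS5B (0.87, 0.87). HIF1A was most like NID1 (r = 0.88, rho = 0.82), a basement membrane gene, NRP2 (0.87, 0.86) and AGAP2 (0.86, 0.78). EGLN1 was most like BLCAP (r = 0.94, rho = 0.94), SNX9 (0.92, 0.81) and ABHD2 (0.89, 0.74). EGLN3 was most like ZBTB22 (r = 0.94, rho = 0.87), CENPB (0.92, 0.85) and PSMD11 (0.91, 0.80).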

How the data were processed

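The authors deposited 1 table of raw counts per Ensembl gene for 17 libraries. Per the submitters' processing notes, tools were HISAT2 2.1.0, Subread 1.6.2, SAMtools 1.7, Trimmomatic 0.33 and FastQC 0.11.7, and the build was Sscrofa11.1. Strand setting and annotation release: not given in the sources used here, so overlapping genes cannot be told apart. The main analysis ran edgeR 4.0.16 under R 4.3.3 (filterByExpr, TMM scaling, quasi-likelihood fit with robust spread, 1 coefficient per group over all 17 libraries, plus a term for M1 names in the name comparison). Tests were two-sided, adjusted by Benjamini-Hochberg over 15884 genes. Differences are first group minus second. The SE comes from the fold change and its F statistic, and log2 CPM carries a prior count of 2. Libraries of a group differed beyond counting noise (chi-square per degree of freedom of at least 24.7). Alternatives used DESeq2 1.42.0, limma 3.58.1, other scaling, filters, covariates and subsets. The pipeline was tested on simulated data. Gene positions come from the RefSeq table (Sscrofa11.1), looked up by symbol. The genes and lists were chosen with earlier results of these data known. From each pathway list, the 3 genes with the smallest p in a comparison were eligible to be named, and not all are. VEGFA, CALCRL and RAMP2 were eligible in each comparison, and of the genes most like each member the closest 3 are named. Marker genes, FKBP5, PDK4 and the single values of control 4 were singled out after their values were seen.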

Additional observations from a re-analysis of the deposited data

Results flagged for a closer look

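In 24 sets of values (8 genes in 3 groups), 2 held an animal far from the others of its group on the log2 CPM scale, where chance gives about 1 in 20. HIF3A in control 4 stood at 3.72 log2 CPM, and its gap to the next control made up 0.750 of the range of the group (critical value 0.71 for 5 animals). APLN in single dose 3 stood at 5.67 log2 CPM, with a gap of 0.714 of the range of its group. Leaving out control 4 moved HIF3A from -1.29 to -0.43 for single dose against control.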

How the results depend on the processing

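In the 3 comparisons of dosing groups, 0 of the 8 genes were called under all alternatives run. The number of all genes called for multidose against control was 0, with DESeq2 8 and with the replicate block 1. For single dose against control it was 0, and 10 with DESeq2. Fits that left out 1 library gave 0 to 1 for single dose against control, 0 to 1 for multidose against single dose and 0 to 0 for multidose against control. For M1 against M8 and M9 names the main count of 2220 was 4553 by limma-voom (with 1 of the 8 genes, EGLN3, at -0.43), 3783 without a group term, 712 in multidose libraries only, 11 with the replicate block and 858 to 2745 with 1 library left out, where the lowest was without single dose 1, then multidose 6 (1247) and multidose 5 (1450).

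Directions turned mostly near 0. For multidose against control, HIF1A, APLN and APLNR stood at -0.044, 0.090 and -0.086 with the M1 name as a covariate and at -0.090, 0.12 and -0.22 with M8 and M9 names only, and HIF1A at -0.0040 with the suffix _R as a covariate. With M8 and M9 names and without control 4, chosen after seeing the data, HIF1A, HIF3A, ADM and APLNR stood at -0.064, 0.34, 0.066 and -0.51. With limma-voom APLN was 0.092 for single dose against control and -0.17 for multidose against single dose. For the latter HIF1A was -0.014 with M8 and M9 names and -0.015 also without control 4, and HIF3A was -0.19 with the replicate block. For the names EGLN1 was 0.0024 (RLE scaling), 0.031 (upper-quartile scaling), 0.0021 (DESeq2), 0.042 (multidose only) and 0.17 (replicate block), and EPAS1 was -0.071 without a group term. With 1 library left out, multidose against control gave -0.0039 to 0.20 for EGLN3 and -0.35 to 0.030 for APLN. Multidose against single dose gave -0.11 to 0.019 for EPAS1, -0.046 to 0.25 for APLN, -0.0048 to 0.12 for EGLN1 and -0.11 to 0.41 for HIF3A. The names gave -0.049 to 0.054 for EGLN1 and -0.0038 to 0.25 for EPAS1. The cause of these turns was not tested. Without the 2 farthest libraries, r turned to -0.33 (APLN with APLNR), -0.19 (EGLN1 with EGLN3), -0.19 (EPAS1 with APLNR) and -0.032 (HIF3A with EGLN3). Of 904 alternative values for the 8 genes, 864 kept direction and side of the threshold, and 39 turned direction. Of the 32 results behind them (8 genes in 4 comparisons), 18 never turned. The main fits called 0 of the 8 genes, and many alternatives left out only 1 library. These counts therefore mostly record direction among overlapping fits. Replicate numbers were not taken to pair animals. Of 15 same-numbered pairs 4 had deviations correlated over 0.1, but differently numbered pairs were not compared, so this cannot decide on pairing. Pseudocounts for normalised values did not apply. With 5 to 7 animals a group, small differences such as those of EGLN1 may not be detectable.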
